A study of Homo sapiens with 15 samples.

Results

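The 64 replication-dependent histone genes of the HIST1, HIST2, HIST3 and HIST4 clusters were followed here through 15 dual-color arrays of A549 cells, an established human lung adenocarcinoma line. They are all genes on the array whose name in the files starts with HIST1, HIST2, HIST3 or HIST4, and they carry 85 of its 41000 probes, which cover 30484 gene names in all. By histone type, the array holds 6 genes of H1 with 6 probes, 15 of H2A with 23 probes, 17 of H2B with 25 probes, 12 of H3 with 16 probes and 14 of H4 with 15 probes. The study compared cells transfected with a precursor oligonucleotide of a miRNA, labeled with Cy5 and called overexpressing here, with cells given the antisense oligonucleotide (antagomir) of the same miRNA, labeled with Cy3 and called knocked down. Both oligonucleotides were used at 20 nM, and RNA was taken 24 h later. The oligonucleotides belonged to miR-574-3p, miR-181d, miR-766, miR-565 or miR-629*, each with 3 arrays, and the labels do not say whether these came from separate transfections, so that the p-values measure the spread between arrays, which may be technical. No array held untreated cells and no dye was swapped. A ratio therefore cannot be assigned to the overexpressing or to the knocked-down cells, and within a miRNA dye and treatment cannot be told apart.

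Histones package DNA. The core histones H2A, H2B, H3 and H4 form the octamer of the nucleosome, and the linker histone H1 binds the DNA between nucleosomes. The clustered genes are transcribed mainly in S phase, when new DNA needs new nucleosomes, and most of their mRNAs end in a stem-loop instead of a poly(A) tail. Many copies encode the same or nearly the same protein, so that a change of a histone type is shared out over many short genes. In bulk RNA, fewer cells in S phase and less histone RNA in each cell cannot be told apart. How far the labeling took up mRNAs without a poly(A) tail was not tested, so a signal may not follow the level of these mRNAs.

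On NCBI36, the build of the files, the probes of the 54 HIST1 genes lie between positions 25834542 and 27969626 of chromosome 6, those of the 6 HIST2 genes between 148071020 and 148125868 of chromosome 1, those of the 3 HIST3 genes between 226679269 and 226714218 of chromosome 1, and those of HIST4H4 between 14813329 and 14815332 of chromosome 12. All 64 gene names were found in RefSeq, as older symbols. The copies are so alike that 9 pairs of probes to different genes share at least 90% of their bases over 40 or more: 5 pairs of H2B probes, 1 of H3 and 3 of H4. The probes of HIST1H2BE and HIST1H2BF are shown as an example, with the bases that differ in capitals.
HIST1H2BE: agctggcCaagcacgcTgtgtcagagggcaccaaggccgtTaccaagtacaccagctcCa
HIST1H2BF: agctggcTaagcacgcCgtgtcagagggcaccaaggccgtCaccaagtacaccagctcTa
These probes have 56 of 60 bases in common, and mRNA of either gene may bind to both. The values of such genes are uncertain as values of single genes. The probe of HIST2H2AA3 and that of HIST1H4K, which belongs to 1 of the 3 H4 pairs, read through the stem-loop that ends the mRNA. The stem-loop is shown in capitals within windows of 30 bases.
HIST2H2AA3: ctcaaaaGGCTCTTTTCAGAGCCacccacg
HIST1H4K: ctatcaacaaaaGGCCCTTTTTAGGGCCcc

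Of the 85 probes, 73 passed the filter on low values (a signal well above background on 3 or more arrays, in whichever channel) and were tested: 3 of 6 for H1, 22 of 23 for H2A, 20 of 25 for H2B, 15 of 16 for H3 and 13 of 15 for H4. The other 12 had mean processed signals of 1.5 to 4.4, and they leave 5 genes without a tested probe, namely HIST1H1A, HIST1H1B, HIST1H1T, HIST1H2BA and HIST1H4G. HIST1H1T, encoding a linker histone of the testis, and HIST1H2BA, encoding a testis H2B, are among them. The epithelial markers KRT8, KRT18, KRT19, CDH1 and TACSTD1 were well above background on all 15 arrays, as were AKR1C1, AKR1B10 and ALDH1A1, which A549 cells are known to express strongly. Of the lung lineage markers, SFTPC and 1 of 2 TITF1 probes were well above background on all 15 arrays but dim, with knocked-down signals of 31.1 to 102. The other TITF1 probe was well above background on 2 arrays, in the overexpressing channel only. SFTPB was so on 5 arrays in the knocked-down channel and 9 in the overexpressing one. PTPRC, PECAM1 and COL3A1 were not well above background on any array. Of the 2 probes of CDKN2A, a gene deleted in A549 cells, 1 was not well above background on any array and the other was on all 15. Over the whole array, 68.1% to 75.5% of probes passed that mark in the overexpressing channel of single arrays and 68.8% to 73.0% in the knocked-down one. Precision is limited by the number of arrays.

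Single arrays stood apart in the histone probes. On replicate 1 of miR-565, the median log2 ratio of the 73 probes was 0.67, against 0.07 and 0.12 on replicates 2 and 3, and 64 of the 73 probes (87.7%) had their highest value of the 3 arrays there. The array stood apart over all probes as well, with 52.8% at their highest and 40.2% at their lowest of the 3 arrays and a median ratio of 0.14. On replicate 1 of miR-181d, the median of all histone probes was 0.05, but that of the 3 H1 probes was -1.53, against -0.37 and -0.36 on the other replicates. Against the mean of all arrays, the H1 probes of replicate 1 of miR-181d were at -1.59 in the overexpressing channel and -0.26 in the knocked-down channel, and the H2B probes of replicate 1 of miR-565 at 0.52 in the overexpressing channel. Both arrays lay on slide 1, which also held replicates 2 and 3 of miR-181d. By rank alone, other arrays also stood out, with smaller shifts: replicate 3 of miR-574-3p held the lowest value of 62 of the 73 probes (84.9%, against 36.0% of all probes), replicate 1 of miR-766 the highest of 76.7% (against 38.4%) and replicate 2 of miR-766 the lowest of 72.6% (against 37.3%). What set the arrays apart was not tested. For replicate 1 of miR-565 and of miR-181d, counts are given with and without them.

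The ratio of each histone probe was tested against 1 for each miRNA (limma, Benjamini-Hochberg adjusted p under 0.05 over all probes tested), and most of the calls belonged to miR-565. For miR-574-3p, 1 histone probe was called higher in the overexpressing cells (2.3% of all probes were) and 2 were called lower (1.72% of all probes). For miR-766, 1 was called higher (0.928%) and none lower (0.22%). For miR-629*, 4 were called higher (5.68%) and 1 lower (3.16%). For miR-565, 23 of 73 were called higher (7.97%) and none lower (2.79%). For miR-181d, 1 was called higher (2.76%) and 3 lower (1.63%). Median log2 ratios of the histone probes were -0.01 for miR-574-3p, 0.02 for miR-766, 0.14 for miR-629*, 0.27 for miR-565 and 0.01 for miR-181d, beside medians of all probes tested of 0.01 to 0.03. The 23 calls of miR-565 rest in part on its replicate 1. Without that array 11 probes were called for miR-565, and 15 for miR-574-3p, 12 for miR-766, 29 for miR-629* and 27 for miR-181d, beside 13.6%, 20.3%, 16.5%, 33.3% and 26.2% of all probes. Without it and replicate 1 of miR-181d together, an alternative chosen after seeing the data, the counts were 13, 18, 17, 31 and 6, in the same order, beside 15.7%, 22.6%, 19.2%, 36.7% and 14% of all probes. With the slide as a random block limma called none in the ratio (0% to 0.217% of all probes). At an unadjusted p under 0.05 there were then 12 for miR-574-3p, 1 for miR-766, 24 for miR-629*, 25 for miR-565 and 26 for miR-181d, beside 9.25%, 0.587%, 9.27%, 15.2% and 28.7% of all probes.

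**Figure D1:**
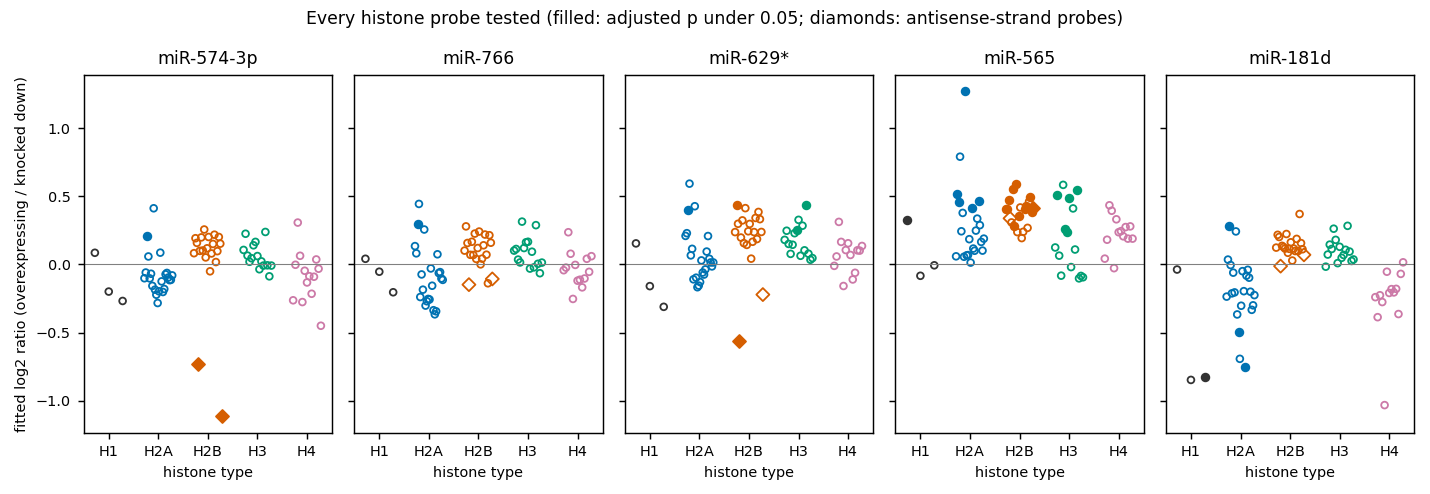
Fitted log2 ratio (overexpressing over knocked down, vertical axis) of each of the 73 histone probes tested, by histone type and miRNA, with filled symbols for an adjusted p under 0.05 and diamonds for the probes to the antisense strand. The diamonds of miR-574-3p lie at -0.73 and -1.11, below all its other histone probes, and most filled circles belong to miR-565.

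The lowest ratios of miR-574-3p belonged to a pair of probes that read the strand opposite to H2B mRNA. Both are listed in the files under expressed sequence tags and not under the reference mRNA. The HIST1H2BD probe (now H2BC5) lies at chr6:26266524-26266583 on the minus strand, and the gene is on the plus strand. The HIST3H2BB probe (now H2BC26) lies at chr1:226712589-226712648 on the minus strand, again opposite to a gene on the plus strand. They are printed here because they were the histone probes called when the ratio of a miRNA was set against the ratios of the others. Capitals mark the 42 bases that are the same in both over an overlap of 48 (87.5%).
HIST1H2BD antisense: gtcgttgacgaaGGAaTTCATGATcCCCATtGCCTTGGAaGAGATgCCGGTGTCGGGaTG
HIST3H2BB antisense: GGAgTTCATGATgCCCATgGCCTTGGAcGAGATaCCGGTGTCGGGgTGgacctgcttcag
The sense-strand probes of the same genes are these.
HIST1H2BD sense: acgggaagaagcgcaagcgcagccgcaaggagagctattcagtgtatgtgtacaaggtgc
HIST3H2BB sense: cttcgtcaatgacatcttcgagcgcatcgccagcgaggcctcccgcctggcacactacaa
The orientation comes from the strand the files give for each probe, which was not checked against a genome of that build, and the letters run the same way: the reverse complement of the HIST3H2BB antisense probe has a run of 30 bases in common with the sense probe of HIST1H2BN, and runs of 26 bases with those of HIST2H2BE and HIST1H2BJ. RNA from the opposite strand of several H2B genes could therefore bind it, and the source gene cannot be told apart from these data.

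For the HIST3H2BB antisense probe, the log2 ratios of miR-574-3p were -0.93, -1.18 and -1.24 on replicates 1, 2 and 3. Those of the other 12 arrays ranged from -0.45 to 0.77 and did not overlap with them. The miR-565 arrays, at 0.77, 0.25 and 0.22, also lay apart from all others, on the high side, and so they did for the HIST1H2BD antisense probe at 0.57, 0.20 and 0.24. The fitted log2 ratio of miR-574-3p was -1.11 (SE 0.12, limma adjusted p = 0.000569), and its difference from the mean of the other 4 miRNAs was -1.15 (SE 0.14, adjusted p = 0.00155). The sense probe of the same gene had log2 ratios of 0.28, 0.11 and 0.07 on these arrays, with a fitted value of 0.15 (SE 0.09, adjusted p = 0.423). For the HIST1H2BD antisense probe, the log2 ratios of miR-574-3p were -0.54, -0.82 and -0.84. Here the arrays of miR-629* overlapped with them, at -0.44, -0.78 and -0.48, whereas those of miR-766 were 0.04, -0.33 and -0.15. The fitted log2 ratios were -0.73 for miR-574-3p (SE 0.10, limma adjusted p = 0.00307) and -0.56 for miR-629* (SE 0.10, adjusted p = 0.012). The sense probe of HIST1H2BD had fitted log2 ratios of 0.16 and 0.30 for these miRNAs, neither of which passed the test. With the slide as a random block the ratio of neither antisense probe passed the test for miR-574-3p, at -0.99 (adjusted p = 0.0906) for HIST3H2BB and -0.65 (adjusted p = 0.264) for HIST1H2BD. For miR-574-3p the HIST1H2BD antisense probe differed from the other miRNAs by -0.64 (SE 0.12, adjusted p = 0.0246). That difference lost its call without replicate 1, 2 or 3 of miR-574-3p (adjusted p = 0.0604, 0.173 and 0.163) and with the slide as a random block (adjusted p = 0.12), while the difference of the HIST3H2BB probe kept its call in each of these (adjusted p up to 0.0221). For miR-629* the call of HIST1H2BD was lost without replicate 1, 2 or 3 of miR-629* (adjusted p = 0.0504, 0.0785 and 0.0855).

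**Figure D2:**
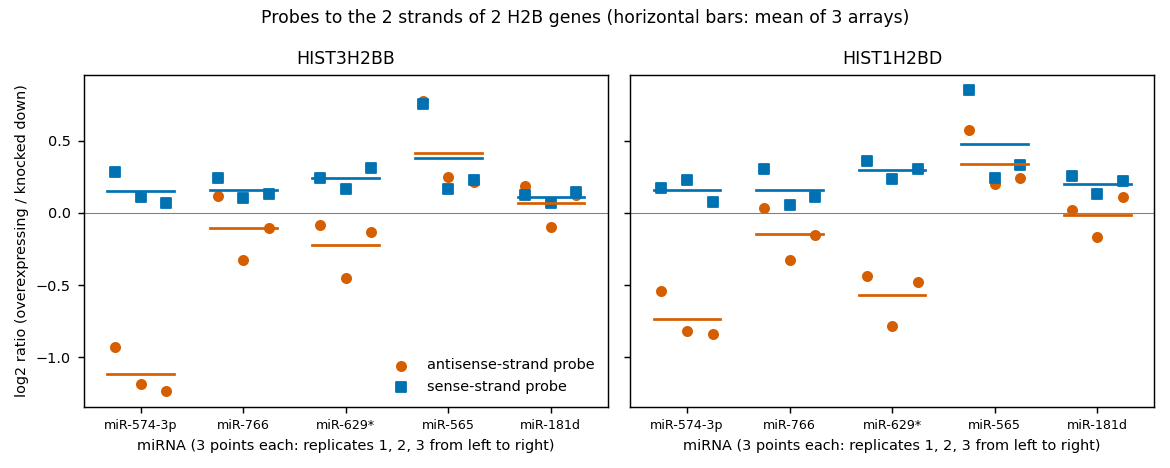
Log2 ratio (overexpressing over knocked down, vertical axis) on each of the 15 arrays for the antisense-strand probes (circles) and the sense-strand probes (squares) of HIST3H2BB and HIST1H2BD, with bars at the mean of 3 arrays. The antisense probe of HIST3H2BB is at -0.93 to -1.24 on the miR-574-3p arrays, and its sense probe is above 0 on all arrays.

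The processed signals of miR-574-3p stood apart in the knocked-down channel. The HIST3H2BB antisense probe had knocked-down signals of 6900, 9045 and 9165 on the miR-574-3p arrays, against 2880 to 4547 on the other 12. Its overexpressing signals on the miR-574-3p arrays were 3626, 3989 and 3894, within the range of 3101 to 7077 of the others, whose highest value came from replicate 1 of miR-565. After quantile normalization within each dye, its knocked-down signal for miR-574-3p was higher than the mean of the other miRNAs by 1.17 on the log2 scale (SE 0.08, limma adjusted p = 6.83e-08), or higher on 3 of 3 arrays than on any other array. The overexpressing signal differed by 0.02 (SE 0.11, adjusted p = 0.992). For the HIST1H2BD antisense probe, the knocked-down signal of miR-574-3p was higher by 0.71 (SE 0.07, adjusted p = 4.28e-06) and that of miR-629* by 0.38 (SE 0.07, adjusted p = 0.0137), and the overexpressing signals of miR-574-3p differed by 0.06 (SE 0.08, adjusted p = 0.987). The knocked-down signals of this probe did overlap: the lowest of miR-574-3p was 6416.5 and the highest of miR-629* was 6612. In the knocked-down channel the same probes were called lower for miR-565 (-0.54 for HIST3H2BB and -0.53 for HIST1H2BD) and miR-181d (-0.37 and -0.38), while miR-766 was at -0.28 and -0.18 and was not called. These comparisons share arrays, since the mean of the others holds miR-574-3p in each. The call of miR-629* was lost without its replicate 2 (adjusted p = 0.137) or 3 (adjusted p = 0.0896). Both calls of miR-181d were lost without its replicate 1 (limma adjusted p = 0.111 for HIST3H2BB and 0.0556 for HIST1H2BD). They were also lost without its replicate 3 (adjusted p = 0.121 and 0.0764). For miR-766 the HIST3H2BB probe was called lower with 75th percentile scaling (adjusted p = 0.0401). It was also called with the replicate number (adjusted p = 0.0273) or the slide (adjusted p = 0.00129) as a block.

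Arrays on a common slide gave the same order. On slide 2, replicates 1 and 2 of miR-574-3p had a mean log2 ratio 1.29 below replicates 2 and 3 of miR-565 for the HIST3H2BB antisense probe, with knocked-down signals higher by 1.32 and overexpressing signals higher by 0.03. On slide 3, replicate 3 of miR-574-3p was 1.01 below the 3 arrays of miR-629*. For the HIST1H2BD antisense probe the corresponding values were 0.90 below on slide 2 and 0.28 below on slide 3. The arrays of miR-766 lay alone on slide 4, where slide and miRNA cannot be told apart.

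**Figure D3:**
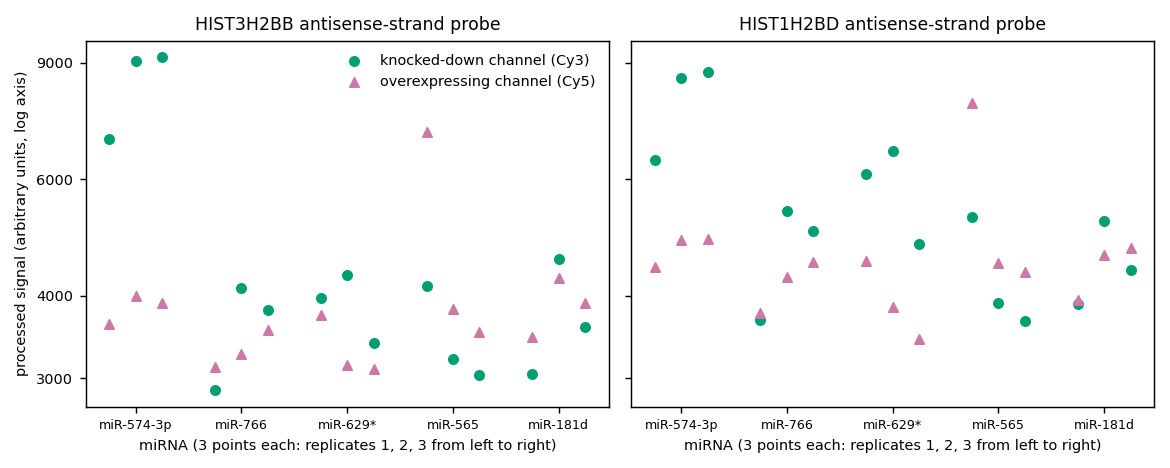
Processed signal (arbitrary units, log axis) of the antisense-strand probes of HIST3H2BB and HIST1H2BD in the knocked-down channel (Cy3, circles) and the overexpressing channel (Cy5, triangles) on each of the 15 arrays. The knocked-down signals of miR-574-3p reach 9165 for HIST3H2BB, while the overexpressing signals of miR-574-3p stay among those of the other miRNAs.

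In the difference from the mean of the other 4 miRNAs, which removes a dye effect common to all arrays, the HIST3H2BB and HIST1H2BD antisense probes of miR-574-3p were the 2 probes called (both lower, where 1.03% of all probes were called in either direction). No histone probe was called for miR-766 (0% of all probes), miR-629* (0.0319%), miR-565 (0.0829%) or miR-181d (0%) in this limma comparison, and 3, 1, 32 and 17 of 73 had an unadjusted p under 0.05, beside 2.62%, 4.5%, 14.6% and 6.65% of all probes. With the slide as a random block 38 histone probes of miR-181d were called lower and 2 higher than the other miRNAs, where 27.8% of all probes were called. In the overexpressing channel, limma called no histone probe for any of the 5 miRNAs (0% of all probes, or 0.255% for miR-766). At an unadjusted p under 0.05 there were 0 for miR-574-3p, 2 for miR-766, 2 for miR-629*, 36 for miR-565 and 9 for miR-181d, beside 3.51%, 3.79%, 1.96%, 19.5% and 3.78% of all probes. In the knocked-down channel, 3 probes were called for miR-574-3p (8.56% of all probes), 1 for miR-766 (4.15%), 1 for miR-629* (0.842%), 3 for miR-565 (2.76%) and 2 for miR-181d (1.98%). Besides the antisense pair these were HIST4H4 for miR-574-3p, higher by 0.46 (SE 0.12, adjusted p = 0.0168), HIST2H2BE for miR-766, higher by 0.32 (SE 0.08, adjusted p = 0.0424), and HIST1H2BC for miR-565, higher by 0.25 (SE 0.06, adjusted p = 0.0442). The probes of HIST4H4 and HIST2H2BE were dim, with mean signals of 15.3 and 49.1. A brighter HIST2H2BE probe had knocked-down signals of 361, 534 and 505 on the miR-766 arrays, within the 357 to 604 of the others.

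The 18 sense-strand probes of H2B lay above 0 almost throughout. H2B pairs with H2A in the dimers that flank the tetramer of H3 and H4. The median log2 ratios of these probes over the miRNAs were 0.14 for miR-574-3p, 0.13 for miR-766, 0.24 for miR-629*, 0.41 for miR-565 and 0.13 for miR-181d, and 17, 17, 18, 18 and 18 of the 18 had a fitted ratio above 1. On single arrays the median ranged from 0.04 on replicate 2 of miR-766 to 0.83 on replicate 1 of miR-565. Without a dye swap, such a common offset cannot be told apart from a dye effect. The probe to HIST1H2BG had log2 ratios of 1.09, 0.27 and 0.41 on the arrays of miR-565, with a fitted value of 0.59 (SE 0.13, limma adjusted p = 0.0198), or 0.34 without replicate 1 (adjusted p = 0.0297). The HIST1H2BE probe that does not resemble that of HIST1H2BF had 0.99, 0.32 and 0.36, with a fitted value of 0.55 (SE 0.11, adjusted p = 0.0154), or 0.34 without replicate 1 (adjusted p = 0.0161). In both, replicate 1 was the highest. For miR-629*, HIST1H2BC was called higher at 0.44 (SE 0.12, adjusted p = 0.0396), from 0.43, 0.36 and 0.53 on its arrays, a call lost without any 1 of them (adjusted p = 0.114 to 0.231). In all, 11 of the 18 sense probes were called higher for miR-565 (7.97% of all probes were), 1 for miR-629* (5.68%) and none for the other 3 miRNAs. At an unadjusted p under 0.05 there were 1 for miR-574-3p, 2 for miR-766 and 1 for miR-181d, beside 18.6%, 15.9% and 21.7% of all probes. Without replicate 1 of miR-565, those called for it were 1 sense probe each of HIST1H2BD, HIST1H2BE, HIST1H2BG, HIST1H2BN, HIST2H2BE and HIST3H2BB. In that fit 13.6% of all probes were called.

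H2A lay lower than H2B on every array. The median log2 ratios of its 22 probes were -0.10 for miR-574-3p, -0.11 for miR-766, 0.02 for miR-629*, 0.22 for miR-565 and -0.20 for miR-181d. Among H2A probes with signals well above background in both channels on all arrays, that of HIST1H2AK had the highest mean signal. Its log2 ratios were -0.17, -0.14 and -0.28 for miR-574-3p, -0.16, -0.50 and -0.11 for miR-766, and -0.14, -0.09 and -0.15 for miR-629*. They were 0.26, -0.12 and -0.09 for miR-565 and -0.43, -0.30 and -0.19 for miR-181d. The value of replicate 1 of miR-565 was the single one above 0, and no miRNA passed the test. HIST1H2AC was the 1 histone gene called for all 5 miRNAs, through a probe at position 26246801 of chromosome 6, 14419 bases from its other probe and listed under an Ensembl transcript. The log2 ratios of this probe were 0.23, 0.26 and 0.14 for miR-574-3p, 0.37, 0.30 and 0.22 for miR-766, 0.40, 0.36 and 0.44 for miR-629*, 0.50, 0.41 and 0.45 for miR-565, and 0.31, 0.30 and 0.24 for miR-181d. All 15 lay above 0, and the fitted values ran from 0.21 (SE 0.05, limma adjusted p = 0.041, miR-574-3p) to 0.46 (SE 0.05, adjusted p = 0.00145, miR-565). No difference of this probe between miRNAs was called, and dye and treatment cannot be told apart in a value common to all. The calls of miR-574-3p, miR-766 and miR-181d were lost without any 1 of their own replicates, and that of miR-629* without its replicate 3 (adjusted p = 0.0682). The probe at the HIST1H2AC reference mRNA varied more, from -0.70 to 1.68, and was not called.

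Other genes with more than 1 probe also differed between them. A dim HIST1H2AG probe was called higher for miR-565 (limma adjusted p = 0.0325), with overexpressing signals of 35.4, 15.4 and 11.4 against knocked-down signals of 8.5, 7.5 and 6.8. The knocked-down signal was not well above background on any of the 3 arrays, so that its level there is a bound, and the overexpressing signal was at least 2.42-fold higher. The bound sets the mean of the overexpressing channel against the lowest knocked-down signal well above background on each array, after quantile normalization of the mean intensities, and is open to dye bias. The call was lost with normexp and loess (adjusted p = 0.0751) and without replicate 1 (adjusted p = 0.133). The brighter HIST1H2AG probe, 1133 bases away, had 0.33, -0.11 and -0.04 on the same arrays and a fitted value of 0.06. HIST1H2AB was called for miR-565 at 0.52 (SE 0.14, adjusted p = 0.0387), from 1.14, 0.19 and 0.23, and without replicate 1 it was at 0.21 (adjusted p = 0.0725). The dimmer probe of HIST1H2AM was called lower for miR-181d at -0.75 (SE 0.20, adjusted p = 0.0494), from -1.31, -0.66 and -0.30, and the other probe of that gene, 70 bases away, had a fitted value of -0.20. HIST1H2AJ was called lower for miR-181d at -0.50 (SE 0.13, adjusted p = 0.0468), from -0.85, -0.39 and -0.25, and its other probe was at -0.69 (adjusted p = 0.0515). For both genes replicate 1 was the lowest, and without it the fitted values of the called probes were -0.48 (adjusted p = 0.387) and -0.32 (adjusted p = 0.366). Leaving out replicate 2 or 3 of miR-181d also ended these calls.

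**Figure D4:**
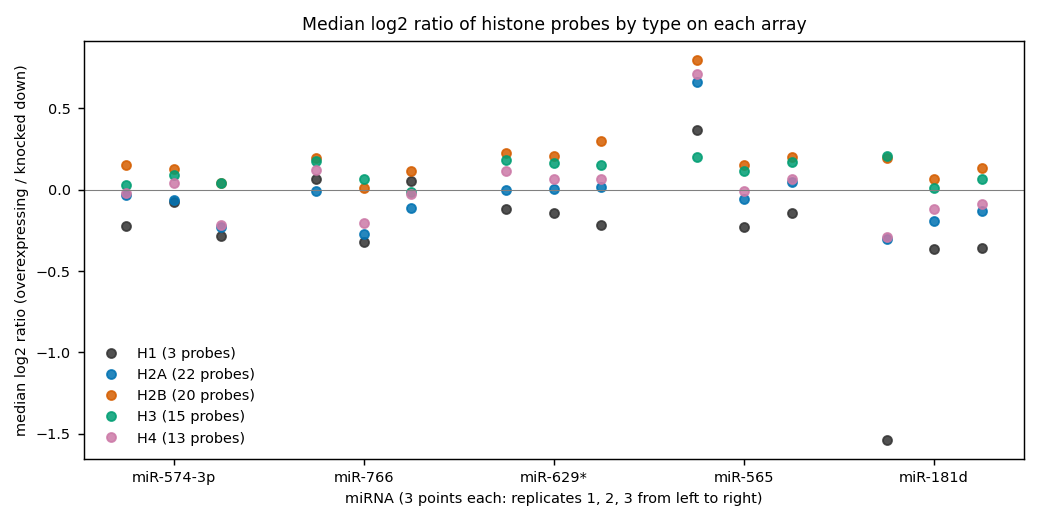
Median log2 ratio (overexpressing over knocked down, vertical axis) of the histone probes of each type on each of the 15 arrays. Replicate 1 of miR-565 stands high for H1, H2A, H2B and H4 but not for H3, and replicate 1 of miR-181d stands low for H1 at -1.53.

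H3 did not follow the other types on replicate 1 of miR-565. H3 and H4 form the central tetramer of the nucleosome, and the tail of H3 carries many of its modifications. The median of the 15 H3 probes was 0.20 on that array, against 0.66 for H2A, 0.80 for H2B and 0.71 for H4, and 0.11 and 0.17 on replicates 2 and 3. The H3 probes split. On replicate 1, HIST1H3B and HIST1H3D (each through 1 of its 2 probes), HIST1H3F, HIST1H3H and HIST1H3J had log2 ratios of 0.86 to 1.34, while HIST3H3, HIST2H3A (through its brighter probe) and HIST1H3C were at -0.39, -0.38 and -0.36. The high group were dim probes, with mean signals of 20.9 to 418, and the low group bright ones, with 17367 to 43700. Whether the split comes from the signal level and not from the genes was not tested. In all, 7 of the 15 H3 probes had their highest value of the 3 arrays on replicate 1 and 7 had their lowest. Among the H3 probes, that of HIST3H3, a gene encoding a testis variant of H3, had the highest mean signal. Its log2 ratios were -0.39, 0.11 and -0.01 for miR-565 and ranged from -0.12 to 0.09 on the 12 other arrays. No miRNA passed the test for this probe. Whether its signal came from HIST3H3 mRNA or from mRNA of other H3 genes was not tested. The probes of HIST1H3B lie 13 bases apart and went opposite ways on replicate 1 of miR-565, at 1.05 and -0.04, with mean signals of 418 and 5615. For miR-629*, HIST1H3J was called higher at 0.44 (SE 0.10, limma adjusted p = 0.0259), from 0.51, 0.33 and 0.46, and HIST1H3E at 0.25 (SE 0.06, adjusted p = 0.026), from 0.31, 0.22 and 0.23. Both calls were lost without any 1 of the 3 replicates (adjusted p = 0.0757 to 0.155). For miR-565, 5 H3 probes were called higher (7.97% of all probes were), led by HIST1H3J at 0.54 (SE 0.10, adjusted p = 0.0119), from 0.86, 0.38 and 0.40. Without replicate 1 of miR-565, the H3 probes called were those of HIST1H3A, HIST1H3E and HIST1H3J, where 13.6% of all probes were called.

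The H4 probes fell into separate groups on replicate 1 of miR-181d. All H4 genes encode nearly the same protein. HIST1H4E had log2 ratios of -2.06, -0.58 and -0.46 on replicates 1, 2 and 3 of miR-181d, and HIST1H4C, with the highest mean signal of the type, had -1.13, 0.22 and 0.23. HIST1H4B, HIST1H4L and HIST1H4D were at -1.12, -1.12 and -0.92 on replicate 1 and between -0.04 and 0.08 on the others. These 5 of the 13 H4 probes lay more than 0.5 below both other replicates. The remaining 8, among them HIST1H4J, HIST1H4K and HIST2H4A, stayed between -0.30 and 0.05 on that array. The overexpressing signals of HIST1H4C were 59917, 126530 and 128950, and its knocked-down signals 131020, 108910 and 109690. On the other arrays HIST1H4C had log2 ratios of 0.33, 0.43 and 0.16 for miR-574-3p, 0.26, 0.07 and 0.38 for miR-766, 0.38, 0.32 and 0.25 for miR-629* and 0.50, 0.31 and 0.50 for miR-565. All 12 lay above 0. None of the H4 probes was called in the ratio for any miRNA (limma), and 2 of miR-574-3p, 0 of miR-766, 0 of miR-629*, 4 of miR-565 and 3 of miR-181d had an unadjusted p under 0.05, beside 18.6%, 15.9%, 27.2%, 34.4% and 21.7% of all probes.

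The linker histone H1 showed the same split within 3 tested genes. HIST1H1D, with the highest mean signal of the type, had log2 ratios of -1.82, -0.37 and -0.36 for miR-181d, -0.22, -0.08 and -0.30 for miR-574-3p, and 0.07, -0.32 and 0.10 for miR-766. For miR-629* it had -0.12, -0.14 and -0.22, and for miR-565 0.19, -0.30 and -0.14. Its overexpressing signal was 4081 on replicate 1 of miR-181d and 12714 to 27124 elsewhere. HIST1H1E had -1.53, -0.54 and -0.40 for miR-181d and was called lower at -0.83 (SE 0.17, limma adjusted p = 0.0268), while HIST1H1D at -0.85 was not (SE 0.22, adjusted p = 0.0505). Without replicate 1 the value of HIST1H1E was -0.47 (adjusted p = 0.181), and the call was also lost without replicate 2 or 3. HIST1H1C had -0.02, -0.05 and -0.04 on the same arrays, and for miR-565, from 0.59, 0.18 and 0.22, a fitted value of 0.33 (SE 0.07, adjusted p = 0.0191), or 0.20 without replicate 1 (adjusted p = 0.011).

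**Figure D5:**
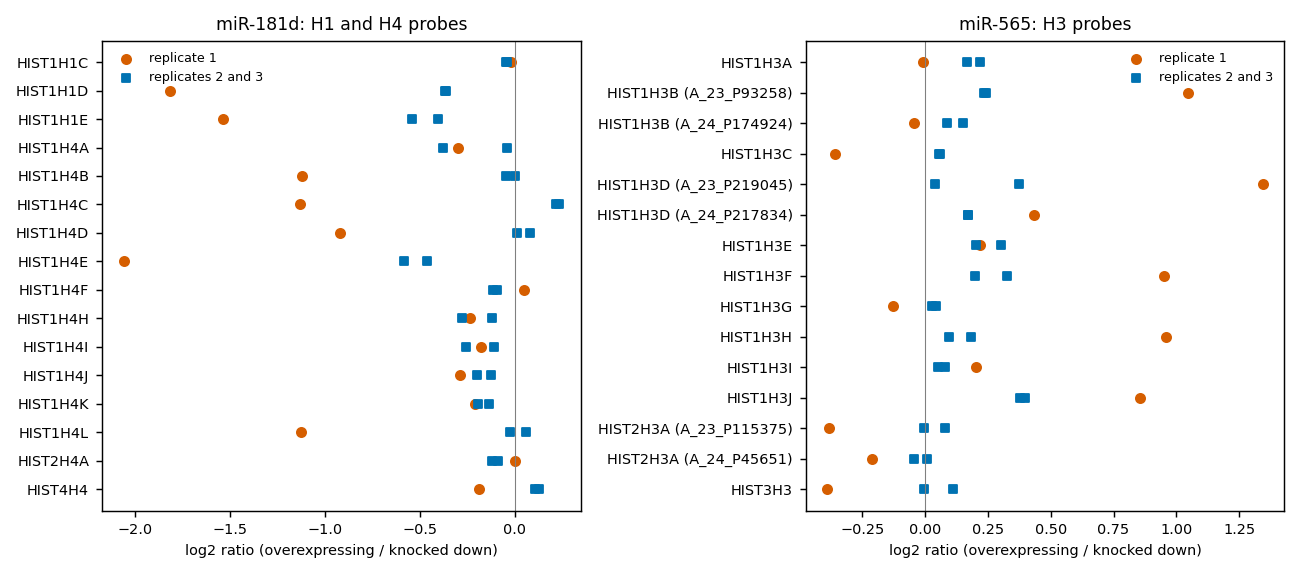
Log2 ratio (overexpressing over knocked down, horizontal axis) of the H1 and H4 probes on the miR-181d arrays and of the H3 probes on the miR-565 arrays, with replicate 1 as circles and replicates 2 and 3 as squares. Replicate 1 of miR-181d lies at -0.92 or below for 2 H1 and 5 H4 genes and near the other replicates for the rest, and replicate 1 of miR-565 splits the H3 probes from -0.39 to 1.34.

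Genes that work with the clustered histones were followed as 4 lists. Of 24 probes to replacement histones, which are also made outside S phase and mostly from polyadenylated mRNA, 1 was called higher for miR-574-3p, 0 for miR-766, 2 for miR-629*, 1 for miR-565 and 3 for miR-181d, and none lower, where 2.3%, 0.928%, 5.68%, 7.97% and 2.76% of all probes were called higher. H2AFV, encoding an H2A.Z variant, led for miR-574-3p at 0.23 (SE 0.05, limma adjusted p = 0.0386), for miR-629* at 0.33 (adjusted p = 0.00922) and for miR-565 at 0.26 (adjusted p = 0.0171). H3F3A, encoding H3.3, led for miR-181d at 0.40 (SE 0.08, adjusted p = 0.0258). Of 21 probes to genes of histone mRNA transcription, 3′ end formation and decay, 1 was called, POU2F1 for miR-565 at -0.26 (SE 0.07, adjusted p = 0.0444), which encodes the octamer-binding factor OCT1. For miR-565, 2.79% of all probes were called lower. Of 21 probes to histone chaperones, 1 was called higher and 1 lower for miR-629* (5.68% and 3.16% of all probes) and for miR-181d (2.76% and 1.63%), and 3 lower for miR-565 (2.79% of all probes were). The higher ones were of ASF1A, a chaperone of H3 and H4, at 0.39 for miR-629* (adjusted p = 0.0211) and 0.36 for miR-181d (adjusted p = 0.0367). Among the called probes, that of NAP1L4, a nucleosome assembly protein, had the largest change for each of these miRNAs, at -0.42, -0.41 and -0.40 (SE 0.08, adjusted p = 0.0133, 0.014 and 0.0238). Chaperone probes that were not called reached -1.06 for miR-565 and -0.43 for miR-181d. SSRP1 and SUPT16H, the subunits of FACT, were called lower for miR-565 at -0.18 and -0.36. The chaperone probes also stood apart on replicate 1 of miR-565, with a median of -0.65 against -0.05 and -0.03 on the other replicates. Among 20 probes to S phase genes, TYMS, encoding thymidylate synthase, was called higher for all 5 miRNAs (0.20 to 0.39), and MCM7, encoding a subunit of the replicative helicase, was called lower for all but miR-766 (-0.24 to -0.35). No other S phase probe was called, where 0.928% to 7.97% of all probes were called higher and 0.22% to 3.16% lower. Without a dye swap, a value common to the miRNAs cannot be told apart from a dye effect. The medians of the S phase list were -0.01 for miR-574-3p, -0.03 for miR-766, -0.04 for miR-629*, -0.10 for miR-565 and 0.06 for miR-181d.

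The promoters separate the types in sequence. In the 250 bases before the start of each gene (RefSeq, GRCh38.p14), on either strand, the octamer ATTTGCAT, to which OCT1 binds, was found in 11 of 14 H2A promoters and 13 of 17 H2B promoters, but in 0 of 6 for H1, 1 of 10 for H3 and 0 of 12 for H4, and in 1.7% of all promoters. H2A and H2B genes often share a promoter between them, so that these counts are not of independent sequences. CCAAT was found in all H1, H2A, H2B and H3 promoters and in 25.0% of those of H4, against 33.0% of all promoters, and TATAAA in 50% to 71.4% of each type against 11.1%. A match is a description of the sequence and not a binding site. The mature sequences of 3 of the miRNAs were found in RefSeq, with the seed (bases 2 to 8) in capitals.
miR-574-3p: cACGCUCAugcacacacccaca
miR-629*: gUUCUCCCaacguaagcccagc
miR-181d: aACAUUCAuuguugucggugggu
No 2 of these share a seed. The complement of the miR-574-3p seed, TGAGCGT, occurs in 3 of the 85 histone probes, those of HIST1H2BM, HIST1H4J and HIST1H4K, and in 0.13% of all 41000 probes. The probes of HIST1H4J and HIST1H4K share 40 of 41 bases where they overlap. The complements of the miR-629* and miR-181d seeds occur in none of the histone probes, and in 0.65% and 0.89% of all probes. For miR-574-3p the log2 ratios of HIST1H2BM were 0.20, 0.19 and 0.07, those of HIST1H4J -0.13, -0.15 and -0.37, and those of HIST1H4K -0.02, -0.03 and -0.22, and none was called. Neither antisense probe holds the seed complement.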

How the data were processed

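Total RNA of A549 cells was hybridized to 15 dual-color Agilent whole genome arrays. The authors' deposited files hold 1 array each, read with Feature Extraction (9.5.3 in the submitters' processing notes), whose processed signal intensities were background-subtracted and LOWESS dye-normalized per the file headers. The deposited series table holds log10 ratios, red over green, which equaled those of the scanner files. Members and gene lists were chosen with earlier results of these data known.

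Control spots and outlier flags were left out and spots of a probe averaged. Probes whose signal was well above background on 3 or more arrays, in whichever channel, were tested (31348 to 31352 a comparison) on log2 Cy5/Cy3 with limma 3.58.1 (R 4.3.3, statmod 1.5.0), 1 coefficient per miRNA, with trended eBayes and Benjamini-Hochberg adjustment. Contrasts were each ratio, and its difference from the mean of the other 4. Each channel was quantile-normalized within its dye (floor of 1) and tested likewise. The design used 3 arrays per miRNA, and code was tested on simulated data.

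Named were, per histone type, the detected probe with the highest mean signal; per miRNA, up to 5 called probes with the highest and 5 with the lowest ratio, of 1 sign on its 3 arrays, and likewise up to 3 for the difference; per comparison list, the largest called ratio; and genes whose probes differed in sign of a called value. All others were chosen after their values were seen. Replacement histones, histone mRNA processing, chaperone and S phase lists were used for comparison. Same-numbered arrays of different miRNAs correlated between -0.39 and 0.51 (median 0.06 over 30 pairs), so the numbers were not taken as pairs. Alternatives were normexp (offset 50) with loess, median centering, the series table ratios, other detection filters, another channel scaling, the slide or replicate number as a block, and leaving out arrays.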

Additional observations from a re-analysis of the deposited data

Results flagged for a closer look

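The antisense-strand probes of HIST3H2BB and HIST1H2BD were picked out because the ratio in miR-574-3p differed from the mean of the other 4 miRNAs in the limma contrast of the difference itself. The difference was -1.15 on the log2 scale for HIST3H2BB (adjusted p = 0.00155) and -0.64 for HIST1H2BD (adjusted p = 0.0246), each lower than the mean of the other miRNAs. For HIST1H2BD the ratios of miR-574-3p overlapped with those of miR-629*. Its call was lost without any single array of miR-574-3p and with the slide as a random block. The cause was not tested. With 3 arrays per miRNA, no test of single outlying arrays was made.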

How the results depend on the processing

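No called value of a single probe changed direction under an alternative, whereas medians near 0 did change sign: that of miR-181d (-0.005 with normexp and loess, -0.008 after centering), of miR-766 (-0.004 with normexp and loess) and, with single arrays left out, of miR-574-3p and miR-766. Of the counts and medians recomputed, 178 stayed within 1.5 times the count or 1 SD of the median and 67 moved, and of the values of single probes 170 kept their call and 65 lost it. For the ratio, no histone probe was called for any of the 5 miRNAs (0) with the slide as a random block (correlation 0.73), normexp with loess called 13 for miR-181d, 15 for miR-629* and 2 for miR-766, centering arrays on the median called 9 for miR-181d and 8 for miR-629*, no filter on detection called 8 for miR-181d and 14 for miR-565, and a filter for detection on all 15 arrays called 7 for miR-181d. The median log2 ratio of miR-629* was 0.077 with normexp and loess and 0.10 after centering. For the difference from the other miRNAs, the slide as a block gave 40 for miR-181d and 1 for miR-574-3p, beside 27.8% and 0.9% of all probes. In that difference miR-565 had 2 with normexp and loess and 1 after centering or with detection on all arrays. In the knocked-down channel, the slide as a block called 12 for miR-181d, 5 for miR-565, 4 for miR-629* and 16 for miR-766, and in the overexpressing channel 18 for miR-181d. No filter left 1 call for miR-181d and 0 for miR-629* and miR-766 in the knocked-down channel, and scaling by the 75th percentile called 2 for miR-766. The share of all probes called is not given for these channel, normexp, centering and detection settings. Their counts therefore cannot be read as particular to the histone probes. The cause was not tested.

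The replicate numbers did not pair the arrays, and with the replicate number as a block the difference of miR-565 had 2 calls, the knocked-down channel of miR-766 had 2 and the ratio of miR-181d had 2. The antisense probes of HIST3H2BB and HIST1H2BD kept their calls for miR-574-3p under that block. Without replicate 1 of miR-565 and of miR-181d, 18 probes were called in the ratio for miR-574-3p, 17 for miR-766, 31 for miR-629* and 13 for miR-565, beside 22.6%, 19.2%, 36.7% and 15.7% of all probes. There was then 1 call in the difference of miR-766 (0.108% of all probes) and 0 in the knocked-down channel of miR-181d. Leaving out 1 array at a time, the ratio gave 2 to 15 calls for miR-574-3p, 0 to 12 for miR-766, 0 to 29 for miR-629*, 11 to 39 for miR-565 and 0 to 27 for miR-181d, the difference of miR-574-3p 1 to 3, and the knocked-down channel 2 to 4 for miR-574-3p, 0 to 1 for miR-629*, 0 for miR-766, 2 for miR-565 and 0 to 2 for miR-181d. The maxima 15, 12, 29 and 27 in the ratio came without replicate 1 of miR-565, beside 20.3%, 16.5%, 33.3% and 26.2% of all probes. The 11 of miR-565 came from the same fit, beside 13.6%. For the 39 of miR-565, the other counts with 1 array left out and the replicate block, no share of all probes is given. Those counts cannot be read as particular to the histone probes. The medians with 1 array left out ranged from 0.107 to 0.404 for miR-565, -0.025 to 0.025 for miR-574-3p and -0.017 to 0.07 for miR-766. They ranged from 0.113 to 0.138 for miR-629* and 0.01 to 0.04 for miR-181d. Dim probes such as those of HIST1H2AG and HIST1H2AC were the least precise in signal over background.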
